A study of Mus musculus with 28 samples.

Results

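The genes described here supply amino acids to T cells or respond to their shortage. They are Atf4, Ddit3, Trib3 and Chac1 of the stress response, Asns, Psat1, Phgdh and Shmt2 of amino acid synthesis, and Slc7a5 and Slc3a2 of amino acid import. The 10 genes were listed by name, and each was read from its probe set that names 1 gene. Each had 1 such probe set, among 19938 genes measured this way. The arrays hold RNA of CD4+ T cells from BwTRP1 Rag1-/- mice, which carry a transgenic T cell receptor for the melanocyte protein TRP1. The cells were stimulated with TRP1 peptide and polarized in culture for 7 days toward Th1 (IL-12 and anti-IL-4) or toward Th17. The Th17 cultures had IL-1, IL-6, IL-21, TGFβ2, and antibodies against IL-2, IL-4 and IFN-γ, with IL-23 and medium with IL-2 later; Th1 cultures received IL-2 medium as well. Thy1.2+ cells were then transferred into B6.PL (Thy1.1+) mice irradiated with 5 Gy, a dose that leaves a host with some of its own cells. On day 5 and day 15 they were taken back from pooled spleens and inguinal lymph nodes by CD4 enrichment and sorting for Thy1.2. Each sample was split, and some of the cells received anti-CD3 and anti-CD28 for 2 h, called restimulation here.

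There were 28 arrays. Day 0, the culture before transfer, had 1 array for each type with and without restimulation. At day 5 each type had 3 arrays unstimulated and 3 restimulated. At day 15 there were 2 and 2 arrays for Th1, and 4 and 4 for Th17. The labels number the arrays of a group but do not say that they came from separate mice, so the p-values measure the spread between these arrays, which may be technical. Values are on the log2 scale, so a difference of 1 is a 2-fold change. "Called" means a Benjamini-Hochberg adjusted p under 0.05 in limma, adjusted over all 19938 genes. In these bulk samples, fewer cells with a transcript and less transcript per cell cannot be told apart.

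Atf4 is a transcription factor whose protein is made from its mRNA more efficiently when eIF2 is phosphorylated, as happens on amino acid shortage or on stress of the endoplasmic reticulum. It then turns on genes for amino acid synthesis and import, and genes such as Chac1, Trib3 and Ddit3. T cells that receive an antigen signal grow and need much amino acid. Slc7a5 and Slc3a2 together form the main importer of large neutral amino acids, and T cells raise it on activation. Since Atf4 is regulated largely in translation and protein stability, its mRNA level is not a measure of its activity.

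The promoters of 9 of the 10 genes, all but Slc7a5, could be read from RefSeq (mouse GRCm38.p6). They were read over 250 bases before and 50 bases after the start site, in 10 windows, since Psat1 has 2. Both strands were searched for TGATGNAA, the core of the element that Atf4 dimers bind, and for CACGTG, the E-box of Myc and related factors. Neither motif can lie within the other. The Atf4 core was found in 3 of the 9 genes, Chac1, Asns and Trib3, which had the largest changes on restimulation at day 5 among the 10. At day 15 in Th17 cells none of these 3 was called. Ddit3 (1.29) and Atf4 (0.76), which had no core, rose most there. Of all 32851 promoter windows of this length, 3.97% held it. The E-box was found in none of the 9 genes and in 7.15% of all windows. The stretches with a core are shown from 250 bases before the start site, for Trib3 with 30 bases after it because its core lies there; capitals mark the core or its reverse complement. They lie at chr2:119350992-119351241 on the plus strand (Chac1), chr6:7693210-7693459 on the minus strand (Asns) and chr2:152344031-152344310 on the minus strand (Trib3).
Chac1: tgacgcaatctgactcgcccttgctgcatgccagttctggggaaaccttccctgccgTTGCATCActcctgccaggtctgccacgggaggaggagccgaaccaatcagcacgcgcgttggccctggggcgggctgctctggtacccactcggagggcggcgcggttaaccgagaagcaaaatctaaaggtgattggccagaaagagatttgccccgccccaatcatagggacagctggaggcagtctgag
Asns: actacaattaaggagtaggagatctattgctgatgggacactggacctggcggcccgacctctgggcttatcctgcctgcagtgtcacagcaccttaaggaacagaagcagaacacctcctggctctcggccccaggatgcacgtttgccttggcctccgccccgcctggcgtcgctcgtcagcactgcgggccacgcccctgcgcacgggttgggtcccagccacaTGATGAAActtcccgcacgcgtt
Trib3: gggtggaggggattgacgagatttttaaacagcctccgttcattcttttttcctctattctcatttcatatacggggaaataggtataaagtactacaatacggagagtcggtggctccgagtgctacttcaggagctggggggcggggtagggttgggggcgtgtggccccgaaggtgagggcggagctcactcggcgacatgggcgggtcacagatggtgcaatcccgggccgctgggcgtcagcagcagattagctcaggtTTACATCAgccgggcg
A match describes these letters and is not evidence of binding, and the arrays measured no binding.

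At day 5, restimulation raised most of these genes in both types. In Th1 cells 8 of the 10 genes were higher, where 4.07% of all genes were, and in Th17 cells 7 of 10, where 3.99% were. None was lower, against 8.96% and 4.08% of all genes. For 9 of the 10 genes in each type, all restimulated arrays were above all unstimulated ones. Of all genes, 13.8% in Th1 and 14.3% in Th17 were. The median change over the 10 genes was 0.92 in Th1 and 0.84 in Th17, beside -0.01 and 0.03 over all genes. The 7 genes called in both types were Atf4, Ddit3, Trib3, Chac1, Asns, Slc7a5 and Slc3a2, and Shmt2 was called in Th1.

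**Figure D1:**
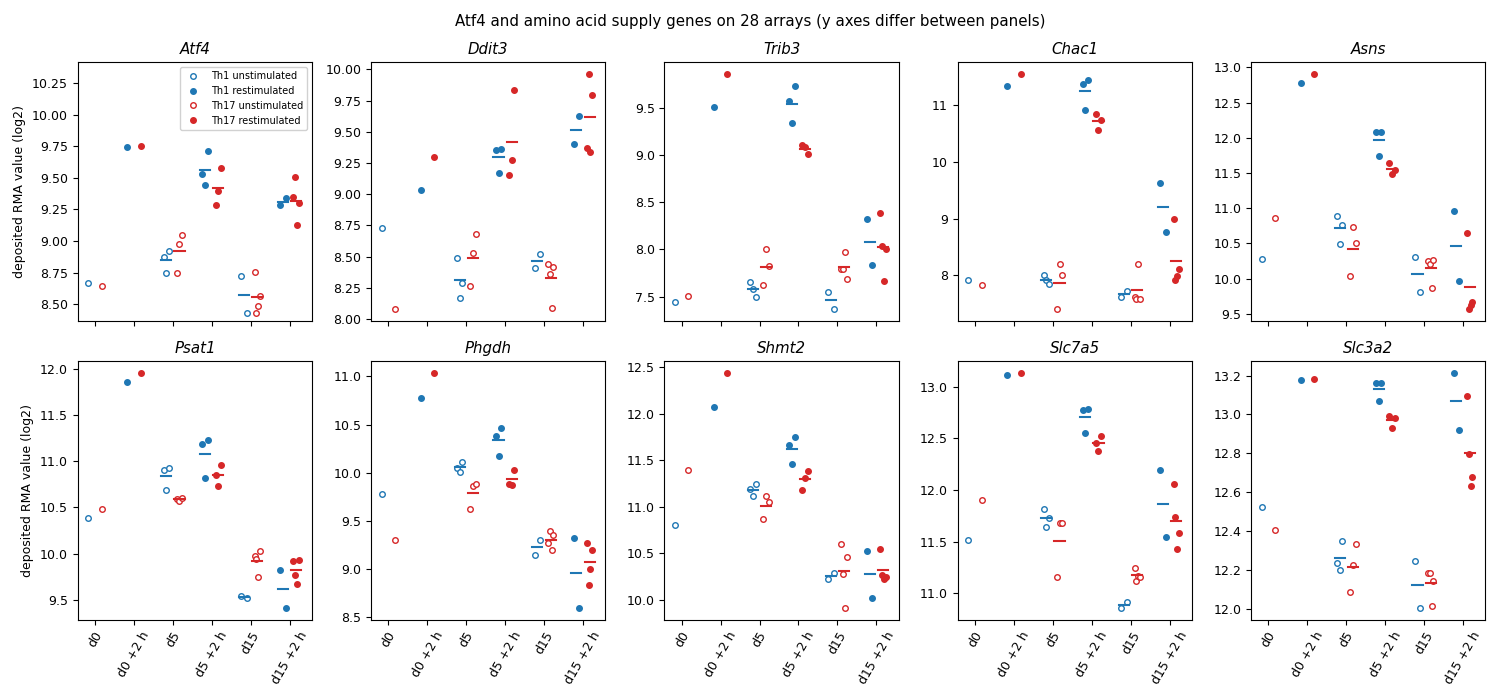
Deposited log2 values of each of the 10 genes on every array, by day and restimulation (+2 h); blue is Th1, red is Th17, open points are unstimulated, filled points restimulated, and short lines are means of groups with more than 1 array. Filled points of Chac1 stand between 10.56 and 11.55 at day 0 and day 5 and between 7.92 and 9.63 at day 15, while those of Ddit3 stay between 9.03 and 9.96 on all days.

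Chac1, which encodes an enzyme that breaks down glutathione and is a target of Atf4, had the largest change of the 10 genes at day 5. Its unstimulated Th1 values were 7.999, 7.92 and 7.85, and its restimulated values 11.38, 10.92 and 11.45. In Th17 cells they were 7.40, 8.19 and 8.01 without and 10.85, 10.56 and 10.75 with restimulation. The groups were far apart in both types. The rise was 3.33 ± 0.25 (standard error) in Th1, 10.0-fold, with a limma adjusted p of 8.72e-09, and 2.85 ± 0.25 in Th17, 7.20-fold, with an adjusted p of 9.5e-08.

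Trib3, a pseudokinase that is induced by Atf4 and restrains it, followed. Its unstimulated values of 7.66, 7.58 and 7.503 in Th1 went to 9.57, 9.34 and 9.72. In Th17 cells 7.62, 8.01 and 7.83 went to 9.10, 9.08 and 9.005. The ranges did not overlap in either type. Trib3 rose by 1.96 ± 0.15 in Th1 (3.90-fold, adjusted p 8.72e-09 in limma) and by 1.25 ± 0.15 in Th17 (2.37-fold, adjusted p 1.12e-05).

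Asns, the enzyme that makes asparagine from aspartate and glutamine, rose in both types too. In Th1 the unstimulated values were 10.88, 10.50 and 10.77 and the restimulated ones 12.09, 11.74 and 12.09. In Th17 they were 10.04, 10.74 and 10.50 against 11.64, 11.48 and 11.54. The restimulated Th17 arrays lay close together and the unstimulated ones did not, replicate 1 being lowest. That array also had the highest mean of 12 myeloid and neutrophil genes among the unstimulated Th17 arrays, 8.82 against 7.61 and 7.65; with this mean as a covariate the Th17 change of Asns was 0.99 (limma adjusted p 0.0331). Asns rose by 1.26 ± 0.25 in Th1 (adjusted p 0.00156 in limma) and by 1.13 ± 0.25 in Th17 (adjusted p 0.00619). Without unstimulated Th17 replicate 1 the Th17 change was 0.94 (limma adjusted p 0.0548), without both parts of replicate 1 it was 0.89 (0.156), and without both parts of replicate 3 it was 1.17 (0.0566).

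The regulators moved less. Atf4 was 8.87, 8.74 and 8.93 in unstimulated and 9.53, 9.45 and 9.71 in restimulated Th1 cells at day 5, and 8.75, 8.98 and 9.05 against 9.29, 9.39 and 9.58 in Th17 cells. No restimulated array fell among the unstimulated ones. The rise was 0.72 ± 0.11 in Th1 (limma adjusted p 0.000263) and 0.50 ± 0.11 in Th17 (adjusted p 0.00925). The Th17 call was lost without unstimulated replicate 1 (limma adjusted p 0.0754), without restimulated replicate 3 (0.0607), and without both parts of replicate 1 (0.0871) or of replicate 3 (0.0752), with changes of 0.41 to 0.48. Ddit3, also called Chop, encodes a transcription factor that acts with and after Atf4 in prolonged stress. It went from 8.49, 8.17 and 8.29 to 9.36, 9.17 and 9.37 in Th1, and from 8.27, 8.53 and 8.68 to 9.15, 9.28 and 9.84 in Th17, again without overlap. The change was 0.98 ± 0.17 in Th1 (adjusted p 0.000471 in limma) and 0.93 ± 0.17 in Th17 (0.00131).

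Both chains of the importer rose to a like extent. Slc7a5, its transport chain, was 11.81, 11.64 and 11.73 without and 12.77, 12.55 and 12.79 with restimulation in Th1 at day 5. In Th17 it was 11.16, 11.68 and 11.68 against 12.46, 12.37 and 12.52. Slc3a2, the chain that carries it to the cell surface, was 12.23, 12.20 and 12.35 against 13.16, 13.07 and 13.16 in Th1, and 12.09, 12.22 and 12.33 against 12.99, 12.93 and 12.98 in Th17. Every restimulated value was above every unstimulated value for both genes. Slc7a5 rose by 0.98 ± 0.15 in Th1 (limma adjusted p 0.00023) and by 0.94 ± 0.15 in Th17 (0.000488), and Slc3a2 by 0.87 ± 0.11 (1.83e-05) and 0.76 ± 0.11 (0.000124).

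The enzymes of serine and one-carbon synthesis changed little on restimulation at day 5. Shmt2, the mitochondrial enzyme that passes a carbon from serine to folate, rose in Th1 cells by 0.44 ± 0.14 with an adjusted p of 0.0446 in limma. That call was lost in 8 of the 9 fits that left out 1 array or both parts of 1 sample, where the change was 0.38 to 0.49; it held only without restimulated replicate 2, at 0.53. It was also lost with array medians centred (limma adjusted p 0.0835) and with the myeloid covariate (0.0701). In Th17 its change was 0.28 (adjusted p 0.264 in limma). Phgdh, which starts serine synthesis, had differences of 0.28 in Th1 and 0.14 in Th17, and Psat1, the next enzyme of that path, 0.24 and 0.26; none of these 4 was called (limma adjusted p 0.181 to 0.628). With cyclic loess scaling Psat1 in Th1 had 0.33 and an adjusted p of 0.0452, and without restimulated Th1 replicate 2 it had 0.37 and 0.0494. With array weights both were called in Th1, Psat1 at 0.29 (limma adjusted p 0.00923) and Phgdh at 0.32 (0.00722), and Phgdh was also called with only the compared groups in the fit (0.0359).

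**Figure D2:**
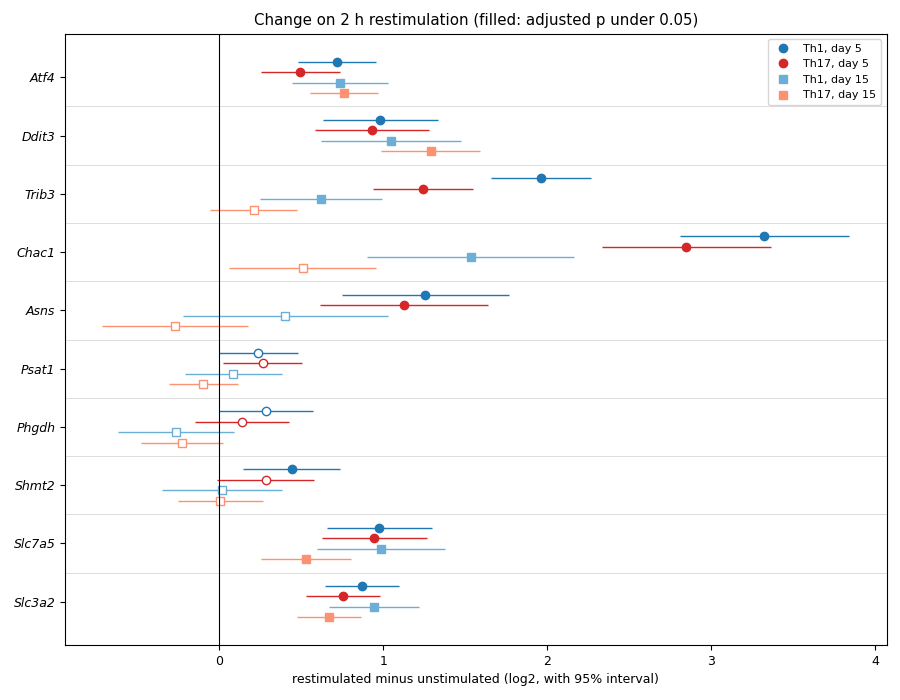
Change on 2 h restimulation for each gene (log2, restimulated minus unstimulated) with its 95% confidence interval, for Th1 (blue) and Th17 (red) at day 5 (circles) and day 15 (squares, paler); filled symbols passed an adjusted p under 0.05. Atf4, Ddit3, Slc7a5 and Slc3a2 are filled in all 4 settings; Chac1 runs from 3.33 in Th1 at day 5 to 0.51 in Th17 at day 15.

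At day 15 the response split by gene. Atf4, Ddit3, Slc7a5 and Slc3a2 still rose in both types, while Chac1, Trib3 and Asns rose less or were not called. In Th1 cells 6 of the 10 genes were higher, where 2.65% of all genes were and 4.63% were lower. In Th17 cells 4 of 10 were, where 6.49% of all genes were and 11.1% were lower. None of the 10 was lower in either type. All restimulated arrays were above all unstimulated ones for 6 of the 10 genes in Th1 and 4 in Th17. Of all genes, 15.7% and 7.08% were. With only the compared groups in the fit, 0 of the 6 Th1 calls held (limma adjusted p 0.0732 to 0.28) at the same differences. Leaving out 1 array of a Th1 group leaves a lone array, which the fit assumes to vary like the other groups. The median change over the 10 genes was 0.68 in Th1 and 0.36 in Th17, beside -0.02 and -0.08 over all genes.

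Atf4 was 8.72 and 8.43 unstimulated and 9.29 and 9.34 restimulated in Th1 cells of day 15. In Th17 it was 8.75, 8.43, 8.49 and 8.57 against 9.35, 9.50, 9.13 and 9.30. The groups did not overlap. The rise was 0.74 ± 0.14 in Th1 (adjusted p 0.00292 in limma) and 0.76 ± 0.10 in Th17 (1.02e-05). Ddit3 was 8.41 and 8.52 against 9.40 and 9.62 in Th1, and 8.44, 8.36, 8.09 and 8.42 against 9.37, 9.96, 9.34 and 9.79 in Th17. It rose by 1.05 ± 0.21 in Th1 (limma adjusted p 0.00351) and by 1.29 ± 0.14 in Th17 (1.41e-06), and its highest group mean of the 12 was that of restimulated Th17 cells at day 15, 9.62. The ranges of the top 5 groups for Ddit3 overlapped from each to the next. Without unstimulated Th1 replicate 2 the Atf4 change in Th1 was 0.59 (limma adjusted p 0.0673), and without both parts of replicate 2 it was 0.57 (0.0847). For Ddit3 in Th1 it was 0.99 (0.0505) without unstimulated replicate 1 and 1.11 (0.0742) without both parts of replicate 1.

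Slc7a5 was 10.86 and 10.91 against 12.19 and 11.55 in Th1 at day 15, and 11.25, 11.12, 11.17 and 11.16 against 12.06, 11.74, 11.43 and 11.58 in Th17. Slc3a2 was 12.24 and 12.004 against 13.21 and 12.92 in Th1, and 12.18, 12.18, 12.01 and 12.14 against 13.09, 12.79, 12.63 and 12.68 in Th17. For both chains all restimulated arrays were above all unstimulated ones, and restimulated replicate 1 was the highest in each type. Slc7a5 rose by 0.98 ± 0.19 in Th1 (adjusted p 0.00292 in limma) and by 0.53 ± 0.13 in Th17 (0.00753), and Slc3a2 by 0.94 ± 0.13 (0.000172) and 0.67 ± 0.09 (2.48e-05). Without restimulated Th1 replicate 1 the Slc7a5 change in Th1 was 0.66 (limma adjusted p 0.0688), and without both parts of that replicate it was 0.64 (0.233). In Th17 it was 0.44 (0.0532) without both parts of replicate 1 and 0.50 (0.0614) without both parts of replicate 2.

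Chac1 at day 15 was 7.61 and 7.72 unstimulated and 9.63 and 8.76 restimulated in Th1. In Th17 it was 7.61, 7.58, 8.20 and 7.57 against 8.99, 7.92, 7.99 and 8.10. Th1 groups were apart, and Th17 groups overlapped because unstimulated replicate 3 stood above 3 of the restimulated arrays. The rise was 1.53 ± 0.31 in Th1 (2.89-fold, limma adjusted p 0.00386), and the difference in Th17 was 0.51 ± 0.22 (1.42-fold, adjusted p 0.108). The Th1 value was 1.48 (limma adjusted p 0.0503) without unstimulated replicate 1, 1.09 (0.0782) without restimulated replicate 1 and 1.04 (0.258) without both parts of replicate 1. The Th17 difference was called without unstimulated replicate 3 (0.66, limma adjusted p 0.0434), without both parts of replicate 3 (0.75, 0.0349), and with array weights on all arrays (0.54, 0.0242).

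Trib3 at day 15 was 7.55 and 7.37 against 8.33 and 7.84 in Th1, and 7.79, 7.79, 7.97 and 7.69 against 8.39, 8.04, 7.66 and 8.01 in Th17. It rose by 0.62 ± 0.18 in Th1 (adjusted p 0.0371 in limma) and differed by 0.21 ± 0.13 in Th17 (0.268), where the groups overlapped. The Th1 call was lost in 5 of 6 fits that left out an array or a sample, with changes of 0.38 to 0.77 and limma adjusted p of 0.0533 to 0.428, and held only without restimulated replicate 2, at 0.87. Without both parts of Th17 replicate 3 the Th17 difference was 0.38 (limma adjusted p 0.0471). Asns was 10.31 and 9.81 against 10.96 and 9.96 in Th1, and 10.25, 10.20, 9.87 and 10.27 against 10.64, 9.57, 9.63 and 9.66 in Th17. Its differences were 0.40 ± 0.30 in Th1 and -0.27 ± 0.21 in Th17, neither called (limma adjusted p 0.533 and 0.403). Of the 4 restimulated Th17 arrays 3 were below every unstimulated one, and replicate 1 was above all of them.

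The synthesis enzymes Psat1, Phgdh and Shmt2 were not called on restimulation at day 15. Their differences ran from -0.26 to 0.09 over both types (limma adjusted p 0.198 to 0.979). Without restimulated Th1 replicate 1, the Phgdh difference in Th1 was -0.63 (limma adjusted p 0.0302), and with array weights Phgdh was called lower in Th17, at -0.33 (0.0164).

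Whether the response differed between the days was tested as a difference of differences, day 15 change minus day 5 change. In Th17 cells 3 of the 10 genes were called, all with a smaller rise at day 15, where 1.17% of all genes were called. These were Chac1 (-2.34 ± 0.33, limma adjusted p 0.000496), Trib3 (-1.03 ± 0.20, 0.00634) and Asns (-1.40 ± 0.33, 0.0339). In Th1 cells 1 of the 10 was called, Trib3 (-1.34 ± 0.23, limma adjusted p 0.0405), where 0.0251% of all genes were. Chac1 had a value of -1.79 ± 0.39 in Th1 with an adjusted p of 0.173 in limma. For Atf4, Ddit3, Slc7a5 and Slc3a2 the values ran from -0.42 to 0.36 over both types and none was called. The 95% interval for Atf4 was -0.36 to 0.40 in Th1 and -0.05 to 0.58 in Th17. The lowest value was that of Slc7a5 in Th17, at -0.54 to -0.24 on leaving out arrays or samples. A missing call thus does not show an equal rise on both days. For Chac1 in Th17 the call held in all 21 fits that left out an array or a sample, with values of -2.63 to -2.04. For Trib3 in Th17 it was lost without both parts of day 5 replicate 1 (-0.92, limma adjusted p 0.0742), and for Asns with the trend and robust prior (0.0742) or array medians centred (0.078). On leaving out arrays or samples, the Asns call was lost in 17 of the 21, with values of -1.59 to -1.16 there and adjusted p of 0.0518 to 0.198; for Trib3 in Th1 in 13 of 15, with values of -1.49 to -1.10 and adjusted p of 0.0509 to 0.365. Trib3 in Th1 was also lost with cyclic loess, array medians centred, array weights, the compared groups alone, the erythroid or the myeloid covariate, and the replicate block (limma adjusted p 0.0561 to 0.126). Without restimulated Th1 day 15 replicate 1, by contrast, Chac1 (-2.23, limma adjusted p 0.0189) and Phgdh (-0.91, 0.0358) were called in Th1.

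The response to restimulation at day 15 also varied between samples in 12 genes that T cells switch on within hours of a receptor signal (Nr4a1, Nr4a2, Nr4a3, Egr1, Egr2, Egr3, Il2, Ifng, Tnf, Cd69, Irf4 and Tnfrsf9), a list chosen after the values were seen. In each of the 4 comparisons of restimulation after transfer all 12 had a higher group mean and 11 of the 12 were called higher. Of all genes, 2.65% to 6.49% were called higher there. Taking the parts with the same number together, the mean of the 12 rose by 2.15 to 2.57 in Th1 and 1.99 to 2.32 in Th17 at day 5. At day 15 it rose by 2.94 and 1.99 in Th1 and by 2.65, 1.80, 1.77 and 1.46 in Th17, replicate 1 being the highest in each type. Chac1 changes in the same order of samples were 2.02 and 1.04 in Th1, and 1.38, 0.33, -0.21 and 0.53 in Th17. Those of Asns were 0.66 and 0.15, and 0.39, -0.64, -0.23 and -0.60. Those of Ddit3 were 0.99 and 1.10, and 0.93, 1.60, 1.26 and 1.37. Replicate 1 of each type was thus highest for Chac1, Asns and the receptor genes, and lowest for Ddit3 among its type at day 15. At day 5 the Chac1 changes ran from 2.36 to 3.59. What part the size of the receptor response has in the Chac1 and Asns values was not tested here beyond the covariate fit in the closing section.

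**Figure D3:**
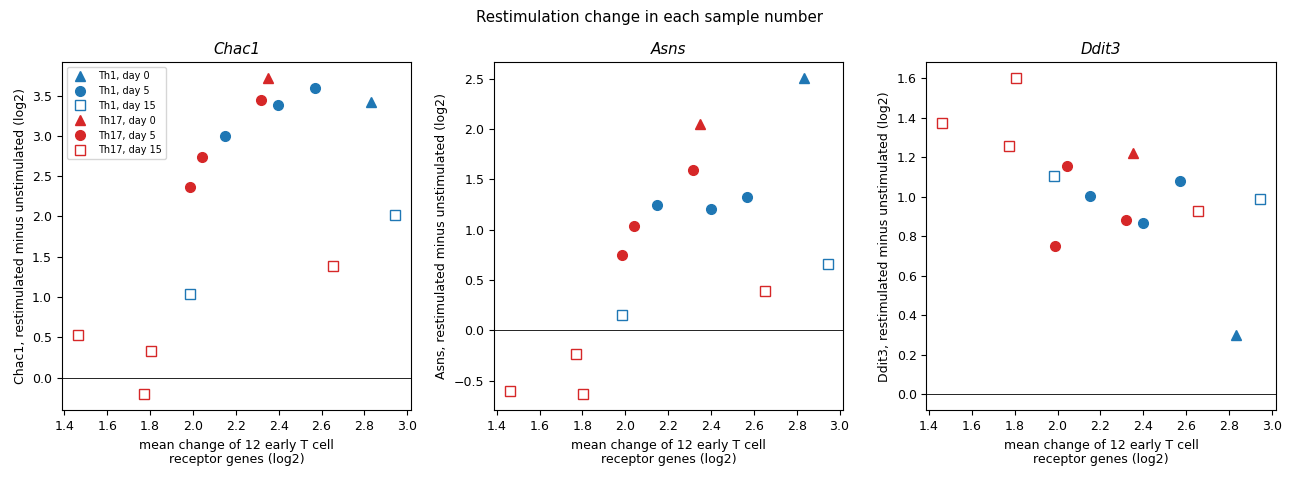
For each sample number, the change of Chac1, Asns or Ddit3 on restimulation (y axis, log2) against the mean change of 12 early T cell receptor genes (x axis, log2); blue is Th1, red is Th17, triangles are day 0, filled circles day 5 and open squares day 15. The open squares lie below all filled symbols for Chac1 and Asns, and not for Ddit3.

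Before transfer, at day 0, each condition had 1 array, so there is no spread and no test. The Th1 culture had 8 and the Th17 culture 9 of the 10 genes at least 2-fold higher after restimulation, beside 3.69% and 1.8% of all genes. Chac1 went from 7.92 to 11.34 in Th1 and from 7.83 to 11.55 in Th17. Asns went from 10.28 to 12.78 and from 10.86 to 12.90, a larger step than at day 5. Trib3 went from 7.44 to 9.51 and from 7.504 to 9.85. Here the synthesis enzymes were higher too. Psat1 went from 10.39 to 11.85 in Th1 and from 10.49 to 11.96 in Th17, Phgdh from 9.78 to 10.78 and from 9.30 to 11.04, and Shmt2 from 10.81 to 12.07 and from 11.40 to 12.44. Slc7a5 was higher by 1.59 and 1.23, Atf4 by 1.07 and 1.11, and Slc3a2 by 0.66 and 0.77. Ddit3 went from 8.73 to 9.03 in Th1, a difference of 0.30, and from 8.08 to 9.30 in Th17, a difference of 1.22. For 9 of the 10 genes the restimulated day 0 Th17 array was the highest of the 12 group means, Ddit3 being the exception.

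From day 5 to day 15 the synthesis enzymes Psat1, Phgdh and Shmt2 fell in both types, with or without restimulation. In unstimulated cells 4 of the 10 genes were lower in Th1 and 4 of 10 in Th17, where 8.72% and 5.28% of all genes were lower and 7.33% and 4.37% higher. In restimulated cells 7 of 10 were lower in each type, where 8.64% and 8.42% of all genes were lower and 7.07% and 5.05% higher. None was higher in any of the 4 comparisons. Psat1, Phgdh and Shmt2 were lower in all 4. Without restimulation, all day 15 arrays were below all day 5 arrays for 7 of the 10 genes in Th1 and 3 in Th17. Of all genes, 25.6% and 11.6% were. After restimulation 8 and 7 of the 10 were, beside 19.8% and 12.3% of all genes. In restimulated Th1 cells 1 of the 10 had all day 15 arrays above, as had 16.4% of all genes.

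Psat1 was 10.90, 10.69 and 10.93 in unstimulated Th1 cells at day 5 and 9.55 and 9.52 at day 15. In Th17 cells it was 10.59, 10.57 and 10.60 against 9.97, 9.94, 9.75 and 10.02. No array of day 15 reached any array of day 5. It fell by 1.31 ± 0.13 in Th1 (limma adjusted p 1.76e-07) and fell by 0.66 ± 0.11 in Th17 (0.000293); after restimulation it fell by 1.46 and by 1.03 (adjusted p 1.01e-07 and 1.67e-06). Phgdh lay between 10.01 and 10.11 at day 5 and at 9.15 and 9.30 at day 15 in unstimulated Th1 cells, and fell by 0.83 ± 0.15 (limma adjusted p 0.000463). In Th17 it lay between 9.62 and 9.88 against 9.19 to 9.39 and fell by 0.49 ± 0.13 (0.0179). Shmt2 lay between 11.11 and 11.24 in Th1 at day 5 and at 10.22 and 10.29 at day 15, and fell by 0.93 ± 0.16 (limma adjusted p 0.000214). In Th17 it fell by 0.70 ± 0.13 (0.00151), from 10.87 to 11.11 down to 9.92 to 10.60. For Phgdh in Th17 the call was lost without unstimulated day 5 replicate 2 (-0.45, limma adjusted p 0.0745) or replicate 3 (-0.44, 0.0807) or day 15 replicate 3 (-0.45, 0.0556).

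Slc7a5 fell by 0.84 ± 0.17 in unstimulated Th1 cells (limma adjusted p 0.00119), with all arrays of day 15 below those of day 5. In Th17 the difference was -0.33 (0.151), and -0.51 without unstimulated day 5 replicate 1 (limma adjusted p 0.0446) or -0.43 with array weights (0.00606). In restimulated cells it fell by 0.83 in Th1 and by 0.75 in Th17 (limma adjusted p 0.00138 and 0.00123), and in Th1 the value was -0.51 (0.0935) without restimulated day 15 replicate 2. Its partner Slc3a2 was not called in any of the 4, with differences of -0.17 to -0.06. Atf4 fell by 0.36 ± 0.11 in unstimulated Th17 cells (limma adjusted p 0.0334), a call lost without day 5 replicate 2 (0.11) or 3 (0.144) or day 15 replicate 2 (0.1) or 3 (0.0886), at values of -0.34 to -0.30, and also with only the compared groups (0.0846), cyclic loess (0.0583) or the replicate block (0.108). In unstimulated Th1 cells its difference was -0.27 (adjusted p 0.184 in limma).

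After restimulation, Chac1 fell by 2.05 ± 0.28 from day 5 to day 15 in Th1 (limma adjusted p 1.43e-05) and by 2.47 ± 0.23 in Th17 (3.12e-07), a 5.53-fold difference in Th17. Trib3 fell by 1.46 and by 1.04, and Asns fell by 1.51 and by 1.68 (adjusted p 1.56e-06 to 0.000405 in limma). For these 3 genes no restimulated array of day 15 reached a restimulated array of day 5. Of all genes, 19.8% in Th1 and 12.3% in Th17 were likewise lower without overlap. In unstimulated cells their differences ran from -0.66 to -0.005 and none was called (limma adjusted p 0.121 to 0.985). Asns in unstimulated Th1 cells was called lower with only the compared groups in the fit (-0.66, limma adjusted p 0.00738), with array weights (-0.64, 0.0184) and with the replicate block (-0.63, 6.81e-05), and Chac1 there with the block (-0.30, 0.0448). Ddit3 differed by 0.21 in Th1 and 0.20 in Th17 after restimulation and was not called (limma adjusted p 0.572 and 0.482).

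**Figure D4:**
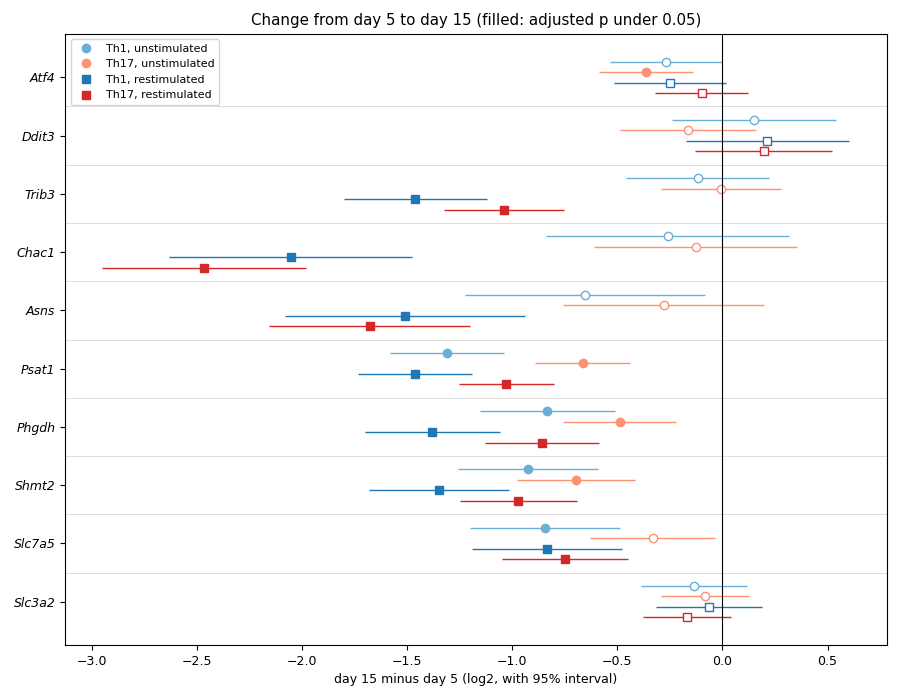
Change from day 5 to day 15 for each gene (log2, day 15 minus day 5) with its 95% confidence interval, for unstimulated (circles, paler) and restimulated (squares) Th1 (blue) and Th17 (red) cells; filled symbols passed an adjusted p under 0.05. Psat1, Phgdh and Shmt2 are filled and below 0 in all 4 settings, Chac1, Trib3 and Asns are filled after restimulation and open without it in this fit, and Ddit3 and Slc3a2 are open in all 4.

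Markers of red cell precursors moved with the day. The mean of 4 measured erythroid genes (Alas2, Slc4a1, Klf1 and Epor, of 9 listed) was 6.69 to 6.86 on the arrays of day 5. At day 15 it was 8.46 to 9.38 without and 7.80 to 8.91 with restimulation. With that mean as a covariate, members called fell from 4 to 2 (Th1) and from 4 to 1 (Th17) in unstimulated cells, from 7 to 3 in restimulated Th1 cells and from 7 to 5 in restimulated Th17 cells, and day-by-restimulation calls in Th17 from 3 to 1. The mean was higher on every array of day 15 than on any of day 5, so the fit can hardly separate it from the day. Errors of the day differences widen with this covariate by construction, and lost calls do not show what part these cells have. In unstimulated cells the fitted differences of the genes called without the covariate were larger in size with it. Phgdh, for example, had -1.70 in Th1 with the covariate (limma adjusted p 0.116) and Psat1 had -1.37 in Th17 (0.059). Chac1 in restimulated Th1 cells had -1.19 (limma adjusted p 0.454). Chac1 and Trib3 differences in restimulated cells were smaller in size with the covariate, and those of Asns larger. The mean of 12 myeloid genes was higher in Th17 samples, 7.61 to 8.82 against 6.56 to 6.87 in Th1 for unstimulated cells of day 5. It was lower after restimulation in every same-numbered pair of day 5, at 6.92 to 8.16 in Th17 and 6.45 to 6.51 in Th1. With it as a covariate, 7 of the 10 genes were called on restimulation in each type at day 5, against 8 (Th1) and 7 (Th17) without it. The mean of 2 CD8 T cell genes went from 7.51 to 7.88 at day 5 to 7.25 to 7.44 at day 15 in unstimulated cells, and its part in the day differences was not tested. NK cell genes were higher in Th1 at day 15, where the mean of 5 genes was 6.63 to 7.18 without restimulation, against 5.69 to 5.76 in Th17. The mean of 6 T cell genes was 11.999 to 12.6 on all 28 arrays, and the mean of 5 B cell genes was 5.92 to 6.47 after transfer.

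In 3 of the 4 comparisons of Th17 with Th1 cells none of the 10 genes was called. Few of all genes were called there either, so this count does not set the 10 apart. None of the 10 was called at day 5 without restimulation, where 2.31% of all genes were higher in Th17 and 1.32% lower. None was called at day 5 after restimulation, with 2.95% higher and 1.02% lower, and none at day 15 without restimulation, with 1.88% and 2.28%. Of the 10, 1, 4 and 2 genes had an unadjusted p under 0.05 in these 3 comparisons in limma, beside 12.9%, 11.8% and 14.6% of all genes. At day 5 after restimulation, 7 of the 10 genes had all Th17 arrays below all Th1 arrays, with differences of -0.53 (Chac1), -0.48 (Trib3), -0.42 (Asns), -0.41 (Phgdh), -0.33 (Shmt2), -0.25 (Slc7a5) and -0.16 (Slc3a2). Of all genes, 7.21% had all Th17 arrays below all Th1 arrays there. Arrays with the same replicate number deviated together in this comparison, and with the replicate number as a block 4 genes were called, Chac1 (adjusted p 0.0115 in limma), Phgdh (0.0245), Trib3 (0.0296) and Asns (0.0296), all lower in Th17. With the block 3.74% of all genes were called higher and 1.76% lower. Trib3 was also called without restimulated Th1 replicate 2 (-0.58, limma adjusted p 0.0478).

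At day 15 after restimulation 1 gene was called, Chac1, lower in Th17 by a log2 difference of -0.94 ± 0.26 (limma adjusted p 0.0313), where 3.45% of all genes were higher and 2.98% lower. The groups overlapped, since 1 Th17 array (8.99) lay between the 2 Th1 arrays (9.63 and 8.76). The call was lost without restimulated Th1 replicate 1 (-0.51, limma adjusted p 0.467) and without restimulated Th17 replicate 2 (-0.83, 0.0978), 3 (-0.86, 0.0868) or 4 (-0.90, 0.0749). Asns was called without Th1 replicate 2 (-1.09, limma adjusted p 0.0187) or Th17 replicate 1 (-0.84, 0.0183), and Slc3a2 without Th17 replicate 1 (-0.37, 0.0305). With the myeloid mean as a covariate the Chac1 difference was -0.68 (limma adjusted p 0.196), and with the trend and robust prior its adjusted p was 0.0563; the part of the NK cell genes was not tested. Psat1 was 0.39 higher in unstimulated Th17 cells at day 15 (limma adjusted p 0.0827), with no overlap, and was called without Th17 replicate 3 (0.45, 0.0443).

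The change on restimulation was not called as different between the types for any of the 10 genes, at day 5 (0.0201% of all genes called) or at day 15 (0%). Of the 10, 1 had an unadjusted p under 0.05 in limma at each day, and of all genes 2.46% and 6.1% did. With the trend and robust prior, 0 of the 10 were called on either day. The fall of unstimulated cells from day 5 to day 15 was likewise not called as different between the types (1.14% of all genes called, 0 of the 10). It was 0.65 smaller for Psat1 in Th17, with an adjusted p of 0.0638 in limma, and 2 of the 10 had an unadjusted p under 0.05, beside 12.6% of all genes. Without unstimulated Th17 day 15 replicate 3 it was 0.70 (limma adjusted p 0.0308), and with the trend and robust prior 1 of the 10, Psat1, was called.

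Other genes of the pathway are given by lists drawn from textbook knowledge, and their counts read against the shares of all genes. On restimulation these were 4.07% higher and 8.96% lower in Th1 and 3.99% and 4.08% in Th17 at day 5, and 2.65% and 4.63% in Th1 and 6.49% and 11.1% in Th17 at day 15. From day 5 to day 15 they were 7.33% higher and 8.72% lower in unstimulated Th1 cells and 4.37% and 5.28% in unstimulated Th17 cells. In restimulated cells they were 7.07% and 8.64% in Th1 and 5.05% and 8.42% in Th17. Of 15 measured Atf4 stress targets, 8 rose in Th1 and 4 in Th17 at day 5, and 4 and 5 at day 15, with none lower. Atf3, a stress factor of the same family, rose most, by 4.08 ± 0.27 and 3.83 ± 0.27 at day 5 and 3.74 ± 0.33 and 4.11 ± 0.23 at day 15 in Th1 and Th17 (limma adjusted p 2.64e-07 or lower). Sesn2, which restrains mTORC1 when leucine is short, rose by 2.41 and 2.12 at day 5 and 1.29 and 1.21 at day 15. Ppp1r15a, which removes the phosphate from eIF2, rose by 0.91 in Th1 at day 5, where Th17 had 0.67 (limma adjusted p 0.111), and by 1.49 and 2.43 at day 15. The list's median change was 0.59 and 0.31 at day 5 and 0.11 and 0.07 at day 15.

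Of 18 measured cytosolic tRNA synthetases, which load tRNAs with amino acids, 10 rose and 1 fell in Th1 and 9 rose in Th17 at day 5. At day 15, 1 rose and 1 fell in Th1, and 1 rose and 3 fell in Th17. Cars, the cysteine enzyme, rose in all 4, by 1.39, 1.52, 1.18 and 0.92. Others that rose at day 5 were Nars (0.66 and 0.60) and Tars (0.59 and 0.82). From day 5 to day 15, 15 of the 18 fell in restimulated cells of each type, with Gars at -0.85 in Th1 and -0.94 in Th17. In unstimulated cells 5 fell in Th1 and 3 in Th17.

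Of 18 other amino acid transporters, 8 rose and 3 fell in Th1 and 5 rose in Th17 at day 5, and 6 rose and 2 fell in Th1 and 4 rose and 4 fell in Th17 at day 15. Slc1a4, a carrier of alanine, serine and cysteine, rose by 2.47 in Th1 and 1.54 in Th17 at day 5 and by 1.31 in Th1 at day 15, with a difference of 0.35 in Th17 (limma adjusted p 0.186). Slc7a1, the importer of arginine and lysine, rose by 1.08, 1.06, 0.89 and 0.43, and Slc38a2, an importer of small neutral amino acids, by 0.84 and 0.72 at day 5 and by 0.78 and 0.85 at day 15 in Th1 and Th17. Slc43a1, another carrier of large neutral amino acids, went the other way, at -0.78 in Th1 and -1.41 in Th17 at day 15. It rose from day 5 to day 15 in unstimulated cells by 2.49 and 2.37, beside the erythroid markers above; their part in it was not tested.

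Of 15 measured genes of serine, one-carbon and proline synthesis outside the 10, 5 rose in Th1 and 4 in Th17 at day 5 with none lower. At day 15, 2 rose and 2 fell in Th1, and 1 rose and 3 fell in Th17. Gpt2, which makes alanine, rose by 1.52 and 0.99 at day 5, and Got1, which makes aspartate, by 0.91 and 0.72 at day 5 and by 1.19 and 0.56 at day 15. From day 5 to day 15, 9 of 15 fell in unstimulated Th1 cells and 1 in Th17, and 10 and 9 after restimulation. The count in unstimulated Th17 cells lies near the share of all genes, 5.28%. Gpt2 was lower in all 4, at -0.83 and -0.61 in unstimulated and -1.94 and -1.29 in restimulated Th1 and Th17 cells. The carrier of serine into mitochondria, Sfxn1, fell by 0.69 and 0.57 on restimulation at day 15.

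The remaining lists hold genes of eIF2, of the endoplasmic reticulum and of amino acid sensing, and several of their counts lie near those shares. Of 14 measured genes of eIF2 and its kinases, 1 rose and 2 fell in Th1 and 3 rose and 1 fell in Th17 at day 5, and 0 and 1 in Th1 and 3 and 1 in Th17 at day 15. Eif2ak3, the kinase that senses stress of the endoplasmic reticulum, rose by 0.43 at day 5 and 0.62 at day 15 in Th17, with -0.05 and 0.21 in Th1 (limma adjusted p 0.892 and 0.478). Of 16 genes of the endoplasmic reticulum stress response, 3 rose and 1 fell in Th1 and 3 rose in Th17 at day 5, and 1 rose and 2 fell in Th1 and 3 rose and 2 fell in Th17 at day 15. Ern1, the sensor Ire1, rose in all 4 by 1.08, 0.99, 0.96 and 0.63, while the chaperone cofactor Sdf2l1 fell by 0.81 and 0.52 at day 15. From day 5 to day 15, 8 of the 16 fell in unstimulated Th1 cells and 5 in Th17, and 8 and 7 after restimulation, with none higher. Of 17 genes of amino acid sensing and mTORC1, 2 rose and 5 fell in Th1 and 1 and 1 did in Th17 at day 5, and 0 rose with 1 and 2 lower at day 15. Eif4ebp1, the inhibitor of cap-dependent translation that mTORC1 switches off and a known Atf4 target, rose by 0.98 and 0.73 at day 5.

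**Figure D5:**
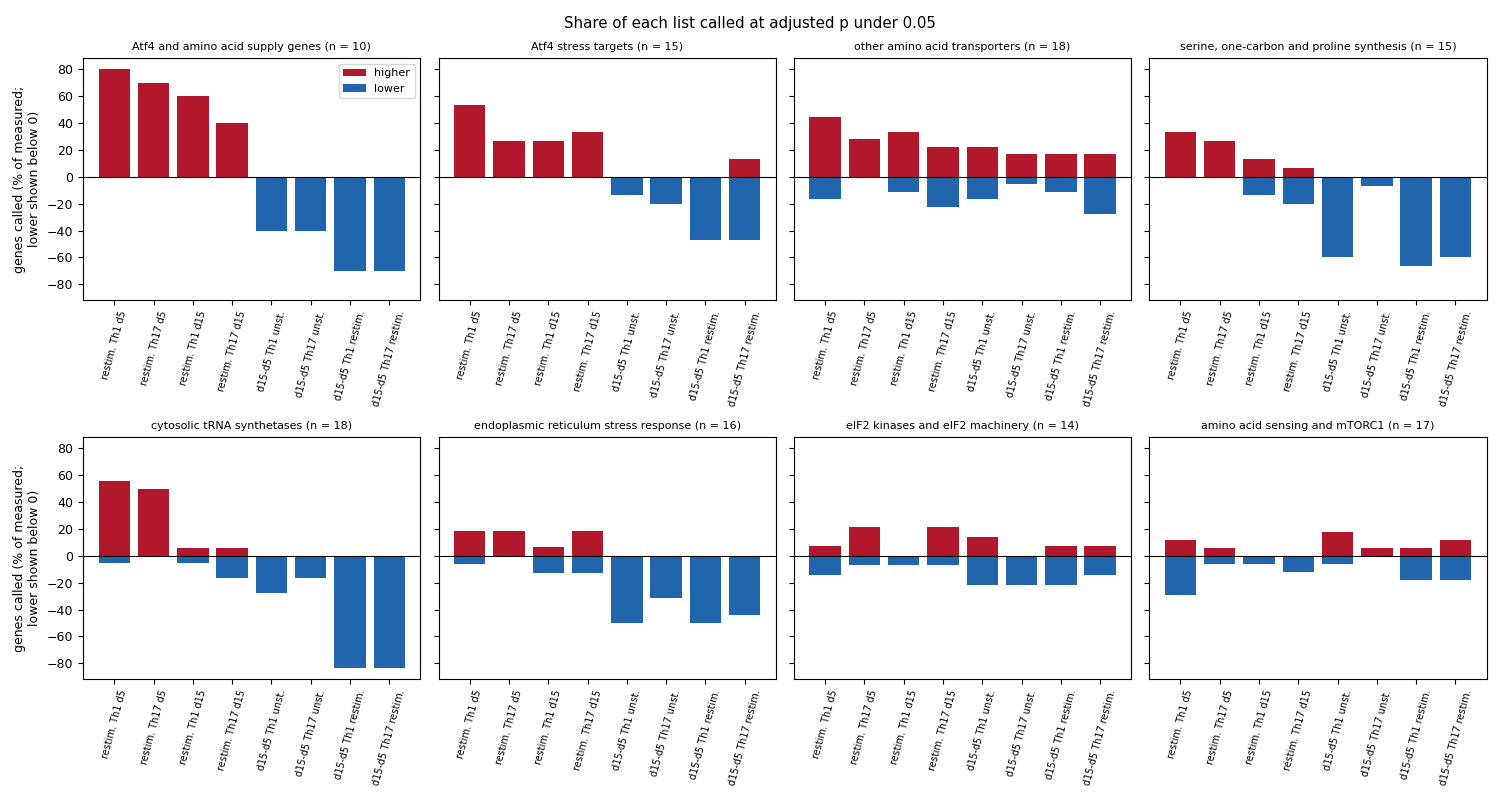
Share of each list called higher (red, above 0) or lower (blue, below 0) as a percent of its measured genes, in the 4 comparisons of restimulation and the 4 of day 15 minus day 5. From day 5 to day 15 in restimulated cells, 7 of the 10 genes and 15 of the 18 tRNA synthetases are lower in each type. Of all genes, 8.64% (Th1) and 8.42% (Th17) are lower there.

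The genes whose 12 group means ran closest to those of 4 of the members, after each gene was centred, were found among 9614 genes above the median level. Closeness was the root mean square difference on the log2 scale. For Atf4, whose own centred profile had a root mean square of 0.44, they were Siah2 (0.13), Zfp703 (0.14), Rheb (0.15), its fellow member Slc3a2 (0.16) and Slc38a2 (0.17). For Ddit3 (0.52) they were Zfp52 (0.20), Slc38a2 (0.21), Zfand2a (0.23), Dusp8 (0.23) and Peli1 (0.23). For Slc7a5 (0.69) they were Got1 (0.17), Yars (0.20), Hccs (0.23), Eif2s2 (0.25) and Iars (0.26), of which Yars and Iars are tRNA synthetases. For Asns (1.01) they were Eif4ebp1 (0.34), Hivep3 (0.37), Hax1 (0.40), Xpot (0.40), which exports tRNAs from the nucleus, and Gpt2 (0.40). The 12 group means share arrays and the 2 polarized cultures, so this is a description.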

How the data were processed

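The arrays are Affymetrix gene arrays. Per the submitters' processing notes, the authors normalized them by RMA in Affymetrix Expression Console, and the deposited values are log2 signals, from 1.89 to 14.38, with array medians of 6.77 to 7.09; no software version or genome build is given in the labels or file headers. RMA sets the probe signals of the arrays to 1 distribution, so most of a shift of all genes would not be seen. The medians of the deposited values still differ between arrays. Of 35556 probe sets, 21789 name 1 gene, 1621 several and 12146 none. For each gene named alone, the probe set with the highest mean was kept, giving 19938 genes. Arrays of a group correlated at 0.987 to 0.998 and 0 pairs were identical. The number of arrays limits the precision.

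The 24 arrays of day 5 and day 15 entered a limma (3.58.1, R 4.3.3) model with 8 groups, with 16 residual degrees of freedom, and p-values were adjusted by Benjamini-Hochberg over 19938 genes. There were 12 pairwise comparisons and 5 differences of differences. On simulated data for the 12 pairwise comparisons, 95% to 100% of genes changed by a log2 value of 1 were recovered. The simulated noise was independent between arrays, with 1 spread per gene for all groups. Arrays that deviate together and groups of unequal spread were thus not covered, and recovery may be lower in the real data. Smaller changes and the differences of differences were not simulated. Same-numbered arrays deviated together (every correlation over 0.1, with 3 pairs) for both day 5 restimulation comparisons and for the types at day 5 after restimulation. The numbers come from the sample titles. At day 5 the values between sample parts were 0.159 to 0.214 in Th1 and 0.39 to 0.481 in Th17. Restimulated Th1 arrays of day 15 and day 5, taken on different days, had 0.383 and 0.648. The consensus correlation of sample parts was 0.043, so the numbers do not establish a pairing. Alternatives were the compared groups alone, genes above the median, cyclic loess, array medians centred, a trend and robust prior, array weights, marker covariates, replicate blocks, and leaving out arrays. All 10 genes are described. List genes are named by the size of their change among those called. The members and lists were chosen with earlier results of these data known, and the early T cell receptor list after the values were seen.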

Additional observations from a re-analysis of the deposited data

Results flagged for a closer look

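In groups of 4 arrays, the highest or lowest array of a gene stood apart from the other 3 in 4 of the 20 sets of gene and group examined. Chance alone would give about 1 in 20 if the sets were independent. They are not, since the genes share the same arrays, so the count cannot show an excess over chance. In unstimulated Th17 cells at day 15, replicate 3 was highest for Chac1, at 8.202, and lowest for Asns, at 9.867. In restimulated Th17 cells at day 15, replicate 1 was highest for Asns, at 10.643, and for Shmt2, at 10.543.

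The change on restimulation differed between day 5 and day 15 in 4 tests with limma. The day 15 change minus the day 5 change was -2.34 for Chac1, -1.398 for Asns and -1.035 for Trib3 in Th17 cells, and -1.342 for Trib3 in Th1 cells. On leaving out arrays or samples, the Trib3 call in Th1 was lost in 13 of 15 fits, the Asns call in 17 of 21, the Trib3 call in Th17 in 1 of 21 and the Chac1 call in 0 of 21. The Asns call was also lost with the trend and robust prior (limma adjusted p 0.0742).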

How the results depend on the processing

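Of 52 calls for single genes, 27 kept direction and call under every alternative listed with the methods, the receptor gene covariate aside. Given below are the counts of the 10 genes called that moved by more than 1.5 times, and ranges on leaving out arrays; other counts moved by less. The cause was not tested. The erythroid mean separated the days on every array, so that covariate takes up part of the day differences by construction. For Th17 against Th1, restimulated at day 15, 0 were called with only the compared groups, cyclic loess, the trend and robust prior, array weights, or the erythroid, myeloid or early receptor gene covariate, and 0 to 3 on leaving out an array. Unstimulated at day 15, 1 was called with genes above the median, cyclic loess, array weights, the erythroid covariate or the replicate block, 3 with the receptor covariate, and 0 to 1 on leaving out an array. Restimulated at day 5, 1 was called with the compared groups or genes above the median, 2 with array weights or the receptor covariate, 4 with the replicate block, and 0 to 1 on leaving out an array; unstimulated, 2 with the receptor covariate.

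On restimulation, 7 to 9 were called in Th1 and 5 to 7 in Th17 at day 5, and 2 to 6 and 3 to 6 at day 15, on leaving out arrays or samples. In Th1 at day 15, 0 were called with the compared groups alone. From day 5 to day 15, the erythroid covariate left 2 (Th1) and 1 (Th17) in unstimulated cells and 3 in restimulated Th1 cells; leaving out arrays gave 2 to 5 in unstimulated Th17 and 6 to 7 in restimulated Th1 cells, and the receptor covariate 2 in unstimulated Th17 cells. For the day-by-restimulation difference in Th1, 0 were called with the compared groups, cyclic loess, centred medians, array weights, the erythroid or myeloid covariate, or the replicate block, 2 with the receptor covariate, and 0 to 3 on leaving out arrays. In Th17, 1 was called with the erythroid covariate and 1 to 3 on leaving out arrays. For the type-by-day difference in unstimulated cells, 1 was called with cyclic loess, genes above the median, the compared groups alone, the trend and robust prior, array weights or the erythroid covariate, 3 with the receptor covariate, and 0 to 1 on leaving out arrays.

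The receptor gene covariate was chosen after seeing the data; its genes rise on restimulation, so by construction it takes up part of that change. With it, 0 were called on restimulation in either type at day 5 and 2 in Th1 at day 15. Of these 2, Asns was called lower (-1.728, limma adjusted p 0.0123), though it was not called without the covariate. The Th1 rises of Atf4, Ddit3, Trib3 and Chac1 at day 15 were not called with it (limma adjusted p 0.217 to 0.777). Signs reversed at day 5 in Th1 for Asns (-0.794), Shmt2 (-0.516) and Slc7a5 (-0.237) and in Th17 for Asns (-0.701) and Slc7a5 (-0.137), and at day 15 in Th1 for Trib3 (-0.366), Chac1 (-0.407), Asns (-1.728) and Slc7a5 (-0.276) and in Th17 for Shmt2 (-0.769) and Slc7a5 (-0.454). None of the reversed values of day 5 was called (limma adjusted p 0.304 to 0.824).

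The replicate block changed no count for restimulation at day 5. Elsewhere the pairing by number was not established, and the block called Psat1 for the types unstimulated at day 15 (0.426, limma adjusted p 0.0154) and Asns (-0.628, 6.81e-05) and Chac1 (-0.295, 0.0448) from day 5 to day 15 in unstimulated Th1 cells. There it lost Atf4 in unstimulated Th17 cells (-0.366, 0.108) and Trib3 for the day-by-restimulation difference in Th1 (-1.342, 0.0991). Day 0 has 1 array a condition, and Th1 at day 15 has 2, which limits what can be called there.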
